A study of Mus musculus with 4 samples.

Results

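The enzymes that break glucose down to pyruvate and lactate, and those of the pentose phosphate pathway that branches off it, were followed at the RNA level in sorted lung cells. The set holds 36 genes, chosen as a list of pathway symbols and matched to the gene symbols of the deposited tables, which hold 23990 genes after joining. All 36 were found. Glycolysis turns glucose into pyruvate in the cytosol and yields ATP and NADH. Pyruvate is then either reduced to lactate, which restores NAD+ and leaves the cell through monocarboxylate transporters, or oxidised by the pyruvate dehydrogenase complex of mitochondria, which pyruvate dehydrogenase kinases switch off. The pentose phosphate pathway gives NADPH through its oxidative arm and ribose for nucleotides through its non-oxidative arm. The sort was labelled as alveolar type 1 (AT1) cells, which are the flat cells of the lung's gas-exchange surface.

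Live cells were sorted from the lobe edges of lungs of littermate mice, of mixed B6 and 129 background at postnatal day 3 or 4, after red blood cell lysis, and mRNA was sequenced. The 2 libraries labelled Sox2 are described as Scnn1a-Cre; Rosa[Sox2/+]. In that genotype, Cre expressed under Scnn1a turns on a Sox2 transgene at the Rosa locus. The 2 libraries labelled WT are described as Scnn1a-Cre; Rosa[mTmG/+]. In that genotype, the same Cre acts on a membrane reporter at that locus, so that both labels share the Cre and differ in the Rosa allele. No label says that libraries of 1 label came from separate animals, so p-values measure the spread between these libraries, which may be technical. Which marker the sort used is not given in the sources used here.

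Sox2 went against the labels: it stood at 1.41 and 1.99 FPKM (fragments scaled to transcript length and to mapped fragments) in libraries labelled Sox2, and at 302 and 477 FPKM in libraries labelled WT. The directions given here follow the labels, and are the opposite of those by the level of Sox2 RNA. Whether the labels were exchanged was not tested. The libraries held 11062 to 12096 genes of at least 1 FPKM. For the tested genes of the pathway set, the deposited lower and upper bounds lay a median of 5.65% and 8.24% from the value in libraries labelled Sox2, and 5.09% and 6.04% in libraries labelled WT. Small RNA genes took 54733 of 391074 and 16831 of 292474 summed FPKM in libraries labelled Sox2, and 94467 of 495055 and 367471 of 721291 in libraries labelled WT, so that labelled WT replicate 2 stood apart. Among 12 markers of AT1 cells, 11 passed upward in libraries labelled Sox2 (summed 7289 and 8363 FPKM, against 1352 and 804 FPKM in libraries labelled WT), and all 9 markers of AT2 cells did so too (summed 25940 and 18010 FPKM, against 6125 and 995 FPKM in libraries labelled WT). Most of the AT2 sum was 1 gene, the surfactant gene Sftpc, with 21175 and 14801 FPKM in libraries labelled Sox2 and 5003 and 796 FPKM in libraries labelled WT, so markers of both cell types were present in every library of a sort labelled as AT1 cells. Of 8 proliferation genes 7 were lower in libraries labelled Sox2 (summed 159 and 70.3 FPKM, against 505 and 286 FPKM in libraries labelled WT). These marker levels differ between labels alongside the results below, and their part in those results was not tested. Of all tested genes, 4.20% passed upward and 8.11% downward in libraries labelled Sox2. In bulk RNA of this kind, fewer cells of a type and less RNA per cell cannot be told apart.

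Glyceraldehyde phosphate dehydrogenase, transketolase and 7 further genes of the set fell in libraries labelled Sox2, and the regulator Pfkfb4 rose. The 7 include Pdk1 and Pdk4, kinases that switch off pyruvate dehydrogenase. Of the 36 genes, 35 passed the filter of a mean of 1 FPKM and were tested with limma, and Eno2, the neuronal enolase, was too low. Of these 35, 9 were lower, 1 was higher and 25 did not pass the adjusted p threshold of 0.05. The 9 lower genes are 25.7% of the tested set, while 8.11% of all 12040 tested genes were lower. The 1 higher gene is 2.86% of it, while 4.20% of all tested genes were higher. The median log2 difference, labelled Sox2 minus labelled WT on the log2(FPKM + 1) scale, was -0.75 for the set and -0.29 for all tested genes, and 24 of the 35 lay below the median of all tested genes. The libraries of the 2 labels did not overlap for 28 genes of the set, or 80.0%, against 58.1% of all tested genes. Of these, 23 were lower in libraries labelled Sox2 (42.5% of all tested genes) and 5 higher (15.7%). The bounds of the labels did not overlap for 20 of the 35, and for 39.4% of all tested genes. Rescaling the libraries by median of ratios moved the median of all tested genes to -0.06 and that of the set to -0.48. It gave 6 lower and 3 higher in the set, beside 767 lower and 882 higher of all 12040 tested genes. Quantile normalization moved the medians to -0.04 and -0.44. It gave 8 lower and 3 higher in the set, beside 827 lower and 980 higher of all tested genes. With labelled Sox2 replicate 1 left out, the median was -0.96 for the set and -0.48 for all tested genes. Leaving out labelled Sox2 replicate 2 gave -0.54 and -0.11. Leaving out labelled WT replicate 1 gave -0.58 and -0.16, and labelled WT replicate 2 gave -0.87 and -0.43. Calls of single genes were lost in some of these fits, as given below.

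**Figure D1:**
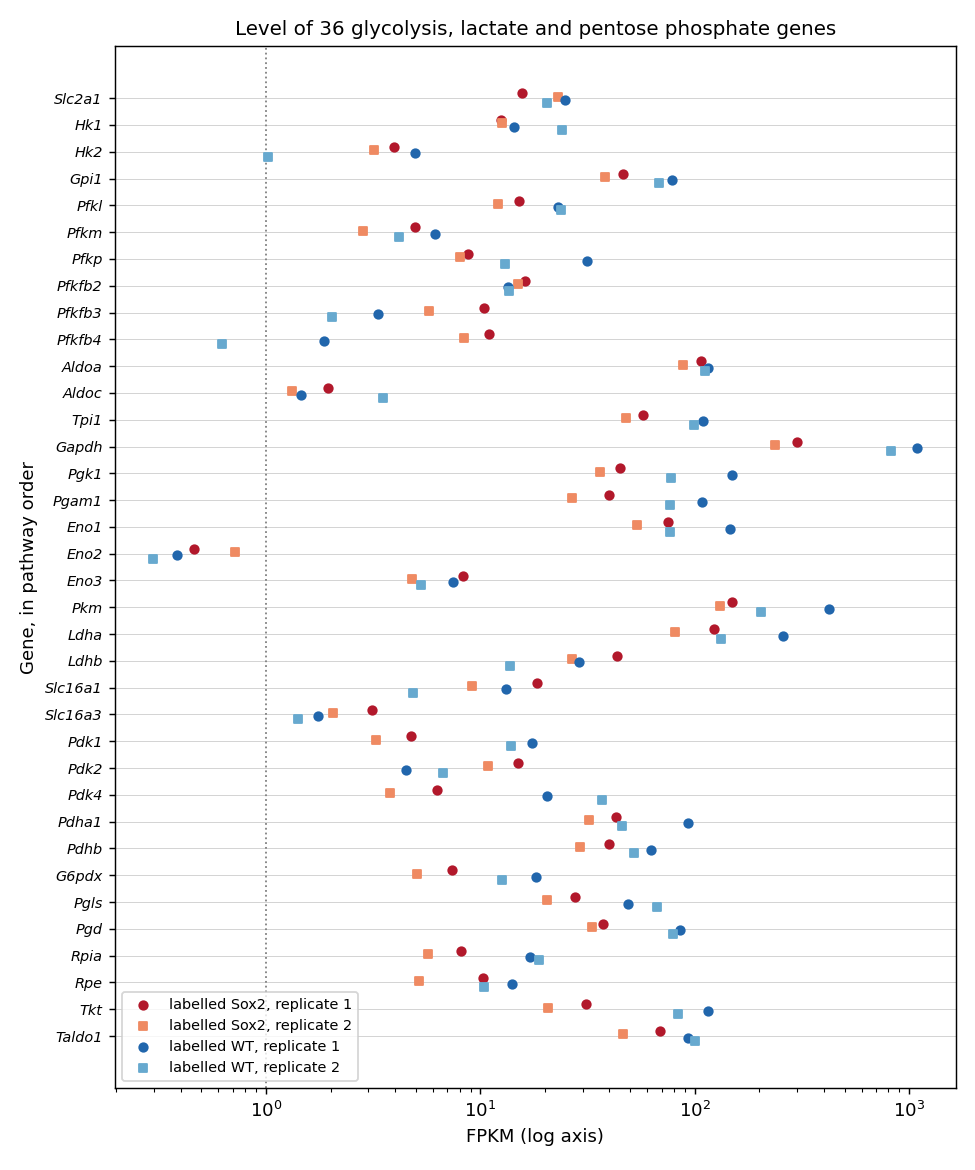
Level of each of the 36 genes in the 4 libraries, as FPKM on a log axis, with genes in pathway order from top to bottom. Red and orange points are the libraries labelled Sox2 and blue points libraries labelled WT. The dotted line marks 1 FPKM. For Gapdh, Tkt, Pdk1 and Pdk4 both blue points lie to the right of both red and orange ones, and for Pfkfb4 to the left.

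The order of the genes by level was alike at the top and changed further down. Gapdh, Pkm, Ldha and Aldoa were ranks 1 to 4 in both labels by mean FPKM. Pfkfb4 was rank 23 in libraries labelled Sox2 and rank 35 in libraries labelled WT. Pdk4 was rank 30 in libraries labelled Sox2 and rank 16 in libraries labelled WT. Tkt was rank 15 in libraries labelled Sox2 and rank 8 in libraries labelled WT.

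Within the set, glucose entry and the first steps of glycolysis held no gene that passed. The glucose transporters Slc2a12 and Slc2a3, which lie outside the set, are given below. Slc2a1, the main glucose transporter of many epithelia, stood at 15.7 and 22.9 FPKM in libraries labelled Sox2 and at 24.9 and 20.5 FPKM in libraries labelled WT. The labels overlapped for this gene (adjusted p = 0.690). Hk1, the widely expressed hexokinase that traps glucose in the cell, stood at 12.5 and 12.6 FPKM in libraries labelled Sox2 and at 14.3 and 24.1 FPKM in libraries labelled WT, without overlap (adjusted p = 0.357). Its inducible relative Hk2 stood at 3.96 and 3.20 FPKM in libraries labelled Sox2 and at 4.96 and 1.03 FPKM in libraries labelled WT, and the lowest and the highest value were both labelled WT (adjusted p = 0.660). Gpi1, the isomerase of the next step, stood at 46.2 and 38.1 FPKM in libraries labelled Sox2, against 78.5 and 67.8 FPKM in libraries labelled WT (log2 difference -0.78, SE 0.31, adjusted p = 0.116). Its labels did not overlap, and it did not pass.

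Phosphofructokinase, which commits sugar to glycolysis, has liver (Pfkl), muscle (Pfkm) and platelet (Pfkp) forms. Pfkl had the highest mean of these forms in both labels, with 15.2 and 12.1 FPKM in libraries labelled Sox2 and 23.0 and 23.8 FPKM in libraries labelled WT. Pfkp, above Pfkl in labelled WT replicate 1 alone, stood at 8.76 and 8.07 FPKM in libraries labelled Sox2, against 31.4 and 13.1 FPKM in libraries labelled WT (log2 difference -1.18, SE 0.42, adjusted p = 0.0899). It passed without labelled WT replicate 2 (-1.79, adjusted p = 0.00534), while without labelled WT replicate 1 the log2 difference was -0.58 (adjusted p = 0.543). Pfkm stood at 4.97 and 2.83 FPKM in libraries labelled Sox2 and at 6.13 and 4.18 FPKM in libraries labelled WT, with overlap. Markers of striated muscle, whose cells use Pfkm and Eno3, summed to 4.92 and 3.499 FPKM in libraries labelled Sox2 and 5.59 and 2.69 FPKM in libraries labelled WT over 8 genes, and none of them reached the filter.

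The enzymes that make and break fructose 2,6-bisphosphate, a potent activator of phosphofructokinase, had positive differences, and Pfkfb4 rose in libraries labelled Sox2. Pfkfb4 stood at 10.9 and 8.42 FPKM in libraries labelled Sox2, against 1.87 and 0.624 FPKM in libraries labelled WT. The labels did not overlap. Its mean was 9.67 ± 1.76 FPKM in libraries labelled Sox2 and 1.25 ± 0.879 FPKM in libraries labelled WT (SD, n = 2 each), which is 7.76-fold higher. The log2 difference was 2.30 (SE 0.43, adjusted p = 0.00743), the only one of the set to pass upward. The fold was 15.5 without labelled WT replicate 1 and 5.18 without labelled WT replicate 2, and the call was lost without labelled Sox2 replicate 1 (adjusted p = 0.0742) or replicate 2 (0.0721). Pfkfb3, a form whose kinase activity far exceeds its phosphatase activity, stood at 10.4 and 5.78 FPKM in libraries labelled Sox2 and at 3.33 and 2.04 FPKM in libraries labelled WT, without overlap. It did not pass as tested (log2 difference 1.28, SE 0.42, adjusted p = 0.0729) and passed under median-of-ratios rescaling (1.51, adjusted p = 0.0206) and quantile normalization (1.52, adjusted p = 0.0179). It also passed without labelled WT replicate 1 (1.53, adjusted p = 0.0494). Pfkfb2, the heart form, did not pass, with 16.2 and 15.0 FPKM in libraries labelled Sox2 and 13.5 and 13.6 FPKM in libraries labelled WT (log2 difference 0.19, adjusted p = 0.754).

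The share of each gene within a library does not depend on scaling between libraries. Pfkfb4 made up 29.1% and 28.8% of the summed FPKM of Pfkfb2, Pfkfb3 and Pfkfb4 in libraries labelled Sox2, and 9.98% and 3.85% in libraries labelled WT. Pfkfb2 made up 43.1% and 51.4% in libraries labelled Sox2 and 72.2% and 83.6% in libraries labelled WT. Together the 3 genes reached 37.5 and 29.2 FPKM in libraries labelled Sox2 and 18.7 and 16.2 FPKM in libraries labelled WT. With 2 against 2 libraries, an exact two-sided permutation test of a share cannot go below p = 0.333. That was its value for every share without overlap, out of 20 shares computed. Shares without overlap were those of Pfkm and of every gene in the PFKFB, enolase, lactate dehydrogenase and pyruvate dehydrogenase kinase groups.

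In the lower, energy-yielding part of glycolysis Gapdh, Pgk1 and Pgam1 fell in libraries labelled Sox2, and no gene rose. Gapdh, the dehydrogenase that makes NADH, stood at 300 and 236 FPKM in libraries labelled Sox2, against 1091 and 824 FPKM in libraries labelled WT. Both libraries labelled WT were above both labelled Sox2. The mean of Gapdh was 268 ± 44.8 FPKM in libraries labelled Sox2 and 957 ± 189 FPKM in libraries labelled WT (SD, n = 2 each), which is 3.57-fold lower, with a log2 difference of -1.83 (SE 0.33, adjusted p = 0.00690). Gapdh is often used as a reference gene, and here it had the highest level of the set in every library. It missed the threshold without labelled Sox2 replicate 2 (adjusted p = 0.0716).

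Pgk1, the kinase that makes the first ATP of the pathway, stood at 45.0 and 35.98 FPKM in libraries labelled Sox2 and at 149 and 77.1 FPKM in libraries labelled WT (2.79-fold lower, log2 difference -1.39, SE 0.36, adjusted p = 0.0319). The 2 libraries labelled WT were far apart. Without labelled WT replicate 1 its log2 difference was -0.92 (adjusted p = 0.125), and the call was also lost without labelled Sox2 replicate 1 (0.0818) or 2 (0.235) and under both rescalings (0.0508 and 0.0684). Pgam1, the mutase of the following step, stood at 39.8 and 26.8 FPKM in libraries labelled Sox2 and at 108 and 76.5 FPKM in libraries labelled WT (2.77-fold lower, log2 difference -1.45, SE 0.34, adjusted p = 0.0200). Of the fits with 1 library left out it missed the threshold in the 1 without labelled Sox2 replicate 2 (adjusted p = 0.200).

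The steps around them did not pass. Tpi1, which interconverts the triose phosphates, stood at 57.0 and 47.7 FPKM in libraries labelled Sox2 against 110 and 99.0 FPKM in libraries labelled WT (log2 difference -0.98, SE 0.30, adjusted p = 0.0564). Aldoa, the main aldolase, which splits the sugar, had 107 and 87.8 FPKM in libraries labelled Sox2 and 115 and 112 FPKM in libraries labelled WT. Its log2 difference of -0.23 was close to that of all tested genes and turned positive under both rescalings (0.06 and 0.03). Aldoc, the brain form, stood at 1.94 and 1.32 FPKM in libraries labelled Sox2 and at 1.46 and 3.52 FPKM in libraries labelled WT. It made up 1.78% and 1.48% of aldolase FPKM in libraries labelled Sox2 and 1.25% and 3.05% in libraries labelled WT.

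Enolase and pyruvate kinase close the pathway. Eno1, the widely expressed enolase, stood at 74.9 and 54.0 FPKM in libraries labelled Sox2 and at 146 and 77.0 FPKM in libraries labelled WT (adjusted p = 0.213), and passed without labelled WT replicate 2 (log2 difference -1.19, adjusted p = 0.0343), with -0.27 without labelled WT replicate 1 (adjusted p = 0.765). Eno1b, a near-identical copy of Eno1, was listed at 34.0% and 34.9% of the Eno1 value in libraries labelled Sox2 and at 36.7% and 38.8% in libraries labelled WT, so how fragments were split between the copies is uncertain. Gapdh, Pgk1, Pgam1, Tpi1, Aldoa and Ldha have processed pseudogenes as well, and how the authors' counting treated shared fragments is not given in the sources used here. Eno3, the muscle enolase, stood at 8.29 and 4.80 FPKM in libraries labelled Sox2 and at 7.48 and 5.30 FPKM in libraries labelled WT, with overlap. Eno2 stayed between 0.299 and 0.713 FPKM in all 4 libraries. Pkm, which makes pyruvate and more ATP, stood at 149 and 132 FPKM in libraries labelled Sox2 and at 422 and 204 FPKM in libraries labelled WT. It had a log2 difference of -1.06 (SE 0.37, adjusted p = 0.0862), with -1.59 without labelled WT replicate 2 (adjusted p = 0.00570) and -0.54 without labelled WT replicate 1 (adjusted p = 0.471). The tables give 1 value for the gene and do not separate its PKM1 and PKM2 splice forms.

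**Figure D2:**
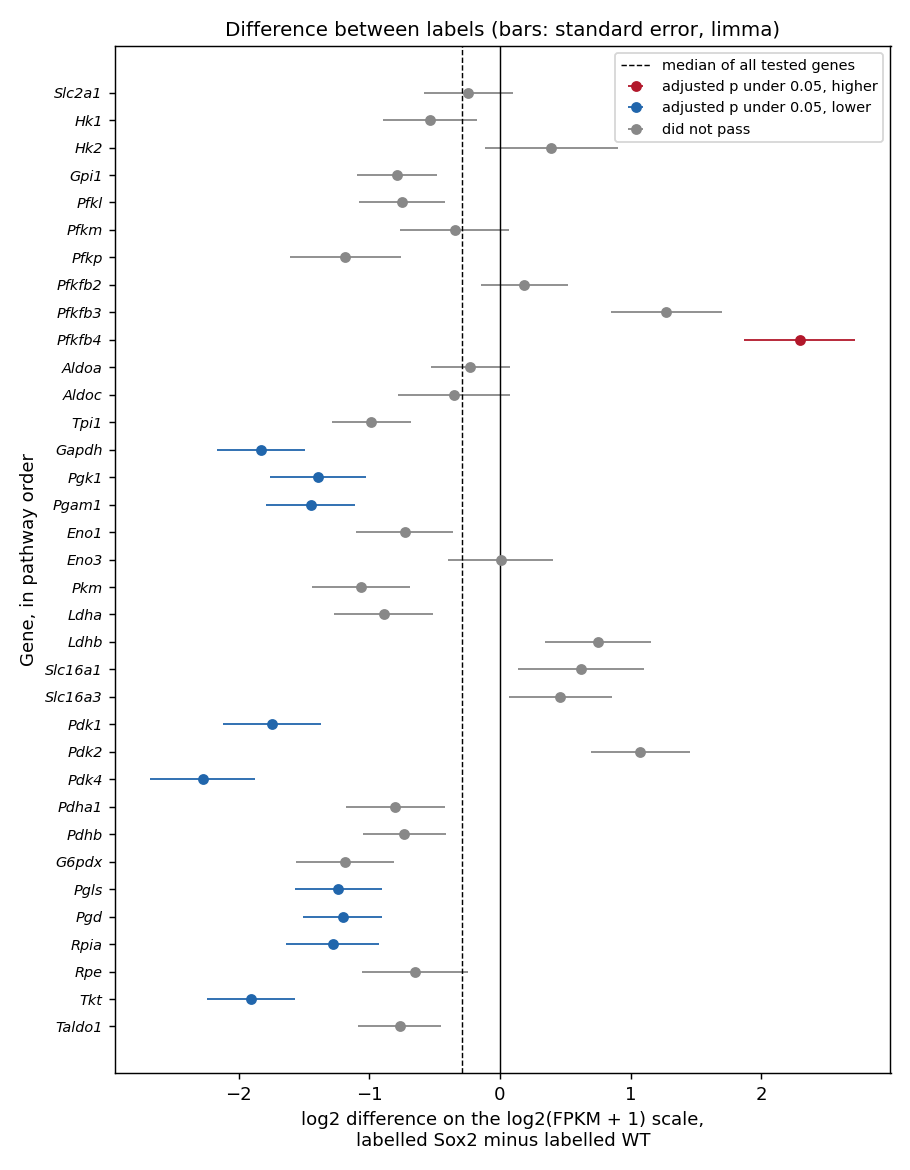
Log2 difference of the 35 tested genes, labelled Sox2 minus labelled WT, on the log2(FPKM + 1) scale, with bars for the standard error from limma. Blue points (9 genes) were lower and the red point (Pfkfb4) higher at an adjusted p under 0.05, and grey points did not pass. The dashed line is the median of all tested genes, -0.29.

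At the fate of pyruvate, Pdk1 and Pdk4 fell in libraries labelled Sox2. The shares of the lactate dehydrogenase genes and of the set's pyruvate dehydrogenase kinases did not overlap between labels. Lactate dehydrogenase is a tetramer of A subunits (Ldha), which favour the making of lactate, and B subunits (Ldhb), which favour its use. Ldha stood at 123 and 80.6 FPKM in libraries labelled Sox2 and at 257 and 133 FPKM in libraries labelled WT. Ldhb stood at 43.4 and 26.9 FPKM in libraries labelled Sox2 and at 28.8 and 13.7 FPKM in libraries labelled WT, with overlap. Neither passed as tested (log2 difference -0.89, SE 0.38, adjusted p = 0.147 for Ldha, and 0.75, SE 0.41, adjusted p = 0.246 for Ldhb). Ldha passed without labelled WT replicate 2 (-1.36, adjusted p = 0.0155) and was at -0.42 without labelled WT replicate 1 (adjusted p = 0.607). Ldhb passed without labelled WT replicate 1 (1.26, adjusted p = 0.0306) and was at 0.24 without labelled WT replicate 2 (adjusted p = 0.764). Within each library the ratio was steadier than the levels: Ldha made up 73.8% and 75.0% of the sum of both in libraries labelled Sox2, and 89.9% and 90.7% in libraries labelled WT. The labels differed by -15.9 points, which is more than the gap between replicates of either label (exact permutation p = 0.333, the smallest possible).

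Lactate leaves or enters cells through monocarboxylate transporters. Slc16a1 (MCT1) stood at 18.3 and 9.19 FPKM in libraries labelled Sox2 and at 13.2 and 4.87 FPKM in libraries labelled WT, and Slc16a3 (MCT4), the export form of glycolytic cells, at 3.12 and 2.05 FPKM in libraries labelled Sox2 and at 1.75 and 1.40 FPKM in libraries labelled WT. Neither passed (adjusted p = 0.428 and 0.473), and replicate 2 was below replicate 1 in each label for both genes. Bsg, a chaperone that brings both transporters to the membrane, stood at 489 and 469 FPKM in libraries labelled Sox2 against 261 and 252 FPKM in libraries labelled WT, without overlap (log2 difference 0.90, SE 0.31, adjusted p = 0.0795). Its relative Emb had the opposite sign, also without overlap (log2 difference -0.99, SE 0.32, limma adjusted p = 0.0676). Emb stood at 27.4 and 21.9 FPKM in libraries labelled Sox2 and at 43.8 and 56.1 FPKM in libraries labelled WT. Neither Bsg nor Emb passed.

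Of the kinases that switch off pyruvate dehydrogenase, Pdk1 and Pdk4 fell in libraries labelled Sox2, while Pdk2 had a positive difference that did not pass. Pdk4, a kinase induced by fasting and fatty acids, stood at 6.25 and 3.79 FPKM in libraries labelled Sox2, against 20.5 and 36.7 FPKM in libraries labelled WT (5.70-fold lower, log2 difference -2.27, SE 0.40, adjusted p = 0.00585). Pdk1, a kinase induced by hypoxia, stood at 4.75 and 3.25 FPKM in libraries labelled Sox2, against 17.3 and 13.9 FPKM in libraries labelled WT (3.91-fold lower, log2 difference -1.74, SE 0.37, adjusted p = 0.0139). Pdk2, the form present in most tissues, had the opposite sign, with 14.9 and 10.8 FPKM in libraries labelled Sox2 and 4.49 and 6.71 FPKM in libraries labelled WT. It did not pass as tested (log2 difference 1.08, SE 0.38, adjusted p = 0.0878) and passed under median-of-ratios rescaling (1.32, adjusted p = 0.0445) and quantile normalization (1.36, adjusted p = 0.0424). Without labelled Sox2 replicate 2 neither Pdk4 (adjusted p = 0.0920) nor Pdk1 (0.185) passed, and without labelled Sox2 replicate 1 Pdk1 was lost (0.0571).

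As a share of the summed FPKM of Pdk1, Pdk2 and Pdk4, Pdk2 made up 57.6% and 60.5% in libraries labelled Sox2 and 10.6% and 11.7% in libraries labelled WT, a difference of 47.9 points. Pdk4 made up 24.1% and 21.2% in libraries labelled Sox2 and 48.4% and 64.0% in libraries labelled WT. The 3 kinases summed to 25.9 and 17.8 FPKM in libraries labelled Sox2 and 42.3 and 57.4 FPKM in libraries labelled WT. A further kinase of the family, Pdk3, lies outside the set and is not in these sums and shares. Pdk3 stood at 10.2 and 8.59 FPKM in libraries labelled Sox2 and at 16.5 and 10.8 FPKM in libraries labelled WT (adjusted p = 0.432). Pdha1 and Pdhb, the subunits of the dehydrogenase that these kinases act on, did not pass. Pdha1 stood at 42.9 and 32.1 FPKM in libraries labelled Sox2 against 93.2 and 45.7 FPKM in libraries labelled WT (adjusted p = 0.187), and passed without labelled WT replicate 2 (log2 difference -1.31, adjusted p = 0.0176), with -0.29 without labelled WT replicate 1 (adjusted p = 0.751). Pdhb stood at 39.7 and 29.0 FPKM in libraries labelled Sox2 and at 62.6 and 51.9 FPKM in libraries labelled WT (adjusted p = 0.155).

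**Figure D3:**
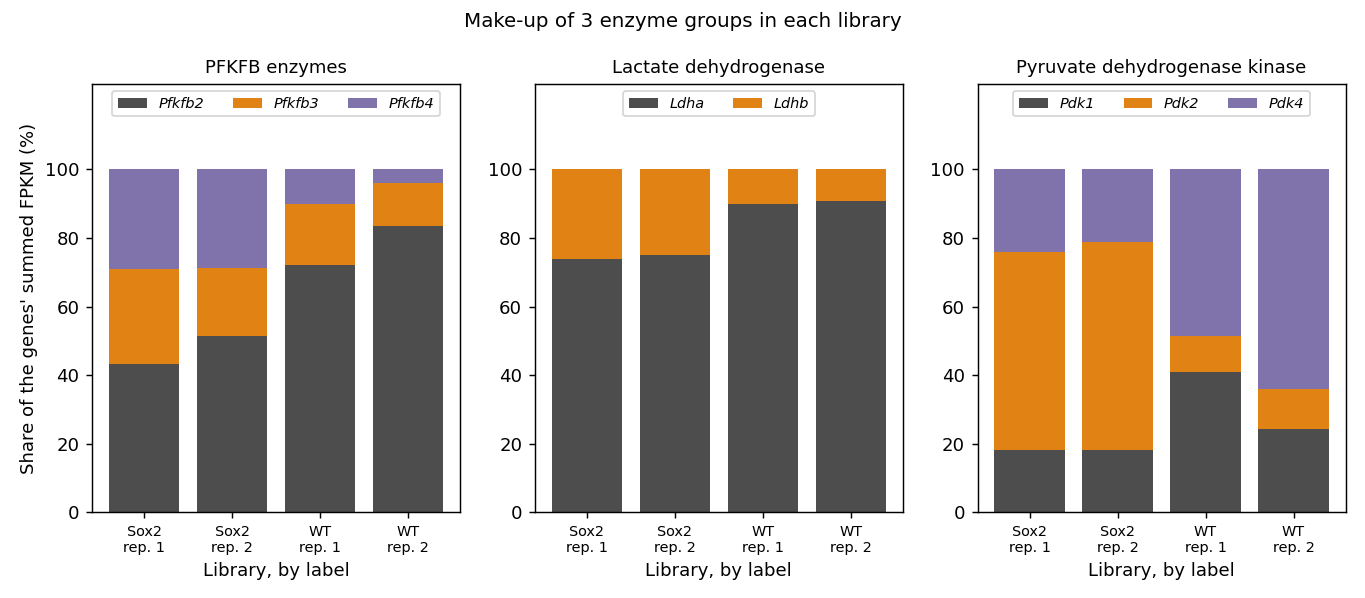
Share of each gene in the summed FPKM of the set's genes of its enzyme group (%), in each library, with the libraries labelled Sox2 left of libraries labelled WT. Pdk3, which lies outside the set, is not in the sum of the kinases. In libraries labelled Sox2, Ldhb took 26.2% and 25.0%, Pdk2 57.6% and 60.5% and Pfkfb4 29.1% and 28.8%. In libraries labelled WT, Ldhb took 10.1% and 9.34%, Pdk2 10.6% and 11.7% and Pfkfb4 9.98% and 3.85%.

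In the pentose phosphate pathway 4 of 7 genes fell in libraries labelled Sox2, against 8.11% of all tested genes, and 3 did not pass. Tkt, the transketolase that links the pathway back to glycolysis, stood at 31.1 and 20.8 FPKM in libraries labelled Sox2, against 115 and 83.5 FPKM in libraries labelled WT. The mean of Tkt was 25.9 ± 7.29 FPKM in libraries labelled Sox2 and 99.1 ± 22.1 FPKM in libraries labelled WT (SD, n = 2 each), which is 3.82-fold lower (log2 difference -1.90, SE 0.34, adjusted p = 0.00585). The call was lost without labelled Sox2 replicate 2 (adjusted p = 0.0825). Rpia, the isomerase that makes ribose 5-phosphate, stood at 8.14 and 5.67 FPKM in libraries labelled Sox2 against 17.1 and 18.9 FPKM in libraries labelled WT (2.60-fold lower, log2 difference -1.28, SE 0.36, adjusted p = 0.0406).

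In the oxidative arm, Pgd, the enzyme of its last step and a source of NADPH, stood at 37.2 and 33.2 FPKM in libraries labelled Sox2 against 85.6 and 78.9 FPKM in libraries labelled WT (2.34-fold lower, log2 difference -1.20, SE 0.30, adjusted p = 0.0269). Pgls, the lactonase of the middle step, stood at 27.7 and 20.4 FPKM in libraries labelled Sox2 and at 49.0 and 66.98 FPKM in libraries labelled WT (2.41-fold lower, log2 difference -1.24, SE 0.33, adjusted p = 0.0349). G6pdx, the entry enzyme that sets the rate of the pathway, had 7.40 and 5.05 FPKM in libraries labelled Sox2 against 18.2 and 12.7 FPKM in libraries labelled WT. Its log2 difference of -1.18 (SE 0.38) did not pass as tested (adjusted p = 0.0635) and passed under median-of-ratios rescaling (-0.93, adjusted p = 0.0456) and quantile normalization (-0.90, adjusted p = 0.0444). Taldo1, the transaldolase, stood at 68.8 and 46.3 FPKM in libraries labelled Sox2 and at 93.2 and 100.6 FPKM in libraries labelled WT (adjusted p = 0.137). Rpe, the epimerase, stood at 10.3 and 5.18 FPKM in libraries labelled Sox2 and at 14.1 and 10.4 FPKM in libraries labelled WT (adjusted p = 0.314). The labels did not overlap for any of the 7 genes, with the libraries labelled Sox2 lower, as was the case for 42.5% of all tested genes.

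The calls of Rpia, Pgls and Pgd were narrow. Rpia missed the threshold in each fit with 1 library left out (adjusted p = 0.103 and 0.350 without labelled Sox2 replicate 1 or 2, 0.0570 and 0.126 without labelled WT replicate 1 or 2). Pgls missed it without labelled Sox2 replicate 1 (0.0786), labelled Sox2 replicate 2 (0.284) or labelled WT replicate 2 (0.102) and under both rescalings (0.0965 and 0.0837). Pgd missed it without labelled Sox2 replicate 1 (0.0884) or 2 (0.198). Under median-of-ratios rescaling Pgd (0.0574) and Rpia (0.0511) missed it as well.

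**Figure D4:**
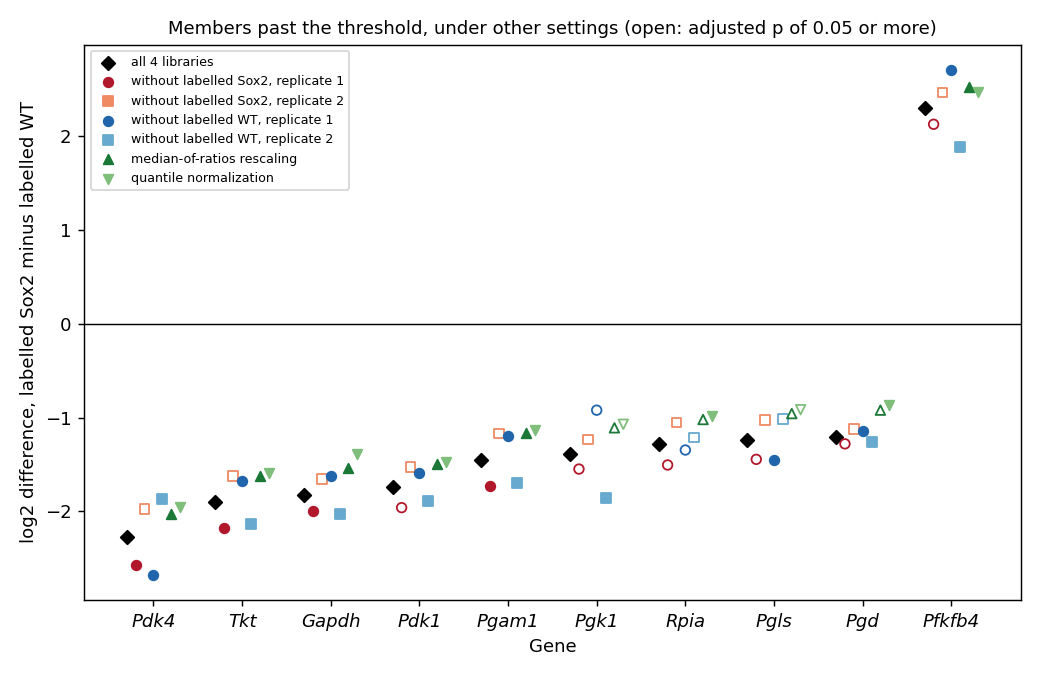
Log2 difference, labelled Sox2 minus labelled WT, of the 10 genes past the threshold, with all 4 libraries (black), with each library left out in turn, and under 2 rescalings (green). Filled symbols have an adjusted p under 0.05 and open ones do not. Every point keeps its sign, and all 10 symbols for the fit without labelled Sox2 replicate 2 are open.

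The promoters of all members were read for the core of the hypoxia response element, the short motif bound by hypoxia-inducible factors, which are known activators of many glycolytic genes. The core is ACGTG or GCGTG, searched on both strands. Overlapping matches each count, so that a palindromic CACGTG gives 1 on each strand. Windows of 300 bases, from 250 before to 50 after each annotated start, came from RefSeq on build GRCm38.p6, which shares its coordinates with the mm10 build of the tables. All 36 genes were matched, with 53 windows, some of which overlap. At least 1 match was found in 42 of the 53 windows, or 79.2%, against 43.8% of all 32851 windows in that table. ACGTG alone was in 41.5% of the members' windows and 19.6% of all windows, and GCGTG in 60.4% and 32.4%. Base composition was not matched between these sets. The windows of Pfkfb4, the 1 gene that was higher, and of Gapdh, Pgk1 and Tkt, which were lower and stand for glycolysis and the pentose phosphate pathway, are given here 5′ to 3′ on the strand of the gene. Capitals mark the core on either strand, where CACGT and CACGC are the reverse complements.
Pfkfb4: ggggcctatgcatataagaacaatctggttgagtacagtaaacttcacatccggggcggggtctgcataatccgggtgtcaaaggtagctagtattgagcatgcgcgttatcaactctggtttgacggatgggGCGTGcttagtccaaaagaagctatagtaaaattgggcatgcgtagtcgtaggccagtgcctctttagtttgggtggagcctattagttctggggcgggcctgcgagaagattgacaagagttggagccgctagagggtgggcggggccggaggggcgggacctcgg
Gapdh: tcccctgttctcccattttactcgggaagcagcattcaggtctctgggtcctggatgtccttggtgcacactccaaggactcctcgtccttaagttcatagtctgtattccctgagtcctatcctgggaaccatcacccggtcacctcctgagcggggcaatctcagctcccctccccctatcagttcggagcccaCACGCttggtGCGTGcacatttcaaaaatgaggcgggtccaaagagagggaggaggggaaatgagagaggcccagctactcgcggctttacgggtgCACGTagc
Pgk1: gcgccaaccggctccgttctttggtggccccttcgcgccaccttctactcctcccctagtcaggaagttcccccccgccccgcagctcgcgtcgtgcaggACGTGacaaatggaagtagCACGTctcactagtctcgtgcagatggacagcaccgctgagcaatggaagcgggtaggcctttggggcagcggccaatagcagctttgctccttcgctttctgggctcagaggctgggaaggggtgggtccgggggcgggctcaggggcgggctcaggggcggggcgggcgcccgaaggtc
Tkt: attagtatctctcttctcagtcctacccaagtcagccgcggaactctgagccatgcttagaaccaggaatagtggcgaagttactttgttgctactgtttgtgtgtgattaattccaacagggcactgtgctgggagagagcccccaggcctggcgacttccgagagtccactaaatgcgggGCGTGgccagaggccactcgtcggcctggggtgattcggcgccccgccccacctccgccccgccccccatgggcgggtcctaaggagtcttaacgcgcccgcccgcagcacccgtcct
These windows are chr9:108991652-108991951 on the plus strand for Pfkfb4, chr6:125165724-125166023 on the minus strand for Gapdh, chrX:106186850-106187149 on the plus strand for Pgk1 and chr14:30548881-30549180 on the plus strand for Tkt. Pfkfb4 holds 1 match, Gapdh 3, Pgk1 2 and Tkt 1. Whether the matches bear on the differences between labels was not tested. Among other members, 1 of the Ldha windows had 7 matches, while the Tpi1, Gpi1 and Eno2 windows had 0. A match is a run of letters in this window and not a site shown to be bound.

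Among neighbouring genes of sugar metabolism, the glucose transporters Slc2a12 and Slc2a3 and 3 enzymes fell in libraries labelled Sox2. The list holds 61 symbols, of which 59 were found and 37 tested. Of the 37, limma called 5 lower, or 13.5% (8.11% of all tested genes), and 0 higher (4.20% of all tested genes), and 32 did not pass. An unadjusted p under 0.05 was found for 3558 of all 12040 tested genes and for 13 of the 37. The median log2 difference of the 37 was -0.44. The labels did not overlap for 20 genes that were lower and 7 that were higher (42.5% and 15.7% of all tested genes). The largest differences of these 7 were those of H6pd, Hkdc1 and Khk, and none of the 3 passed. Their log2 differences were 1.42 (SE 0.44, limma adjusted p = 0.0567), 1.26 (SE 0.39, 0.0592) and 1.16 (SE 0.40, 0.0793). Without labelled WT replicate 1 or 2, limma called 2 and 1 of them higher, and 3 to 5 under the rescalings, the robust variance model and the replicate block. Slc2a12 stood at 1.42 and 1.43 FPKM in libraries labelled Sox2, against 14.0 and 20.9 FPKM in libraries labelled WT (log2 difference -2.90, SE 0.39, adjusted p = 0.00151), and passed with any 1 library left out. Slc2a3, a high-affinity glucose transporter, stood at 1.02 and 0.582 FPKM in libraries labelled Sox2, against 14.5 and 6.06 FPKM in libraries labelled WT (12.8-fold lower, log2 difference -2.55, SE 0.46, adjusted p = 0.00642). Its fold was 7.56 without labelled WT replicate 1, and the call was lost without labelled Sox2 replicate 2 (adjusted p = 0.102).

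Enzymes beside the main route made up the other 3. Pcx, which carboxylates pyruvate to oxaloacetate, stood at 5.46 and 5.56 FPKM in libraries labelled Sox2 against 25.0 and 59.6 FPKM in libraries labelled WT (7.68-fold lower, or 4.54-fold without labelled WT replicate 2, log2 difference -2.61, SE 0.42, adjusted p = 0.00365). Gpd2, the mitochondrial enzyme of the glycerol phosphate shuttle, stood at 6.38 and 6.59 FPKM in libraries labelled Sox2 and at 25.0 and 16.1 FPKM in libraries labelled WT (log2 difference -1.49, SE 0.36, adjusted p = 0.0242). It was lost without labelled Sox2 replicate 1 (adjusted p = 0.116), labelled Sox2 replicate 2 (0.184) or labelled WT replicate 1 (0.114). G6pc3, a widely expressed glucose phosphatase, stood at 10.3 and 9.44 FPKM in libraries labelled Sox2 and at 23.8 and 22.9 FPKM in libraries labelled WT (log2 difference -1.16, SE 0.33, adjusted p = 0.0433). It was lost in each fit with 1 library left out (adjusted p between 0.0943 and 0.298) and under both rescalings (0.0634 and 0.0559).

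Of genes outside glycolysis that respond to hypoxia or encode hypoxia-inducible factors, Vegfa, P4ha1 and Epas1 rose in libraries labelled Sox2. The list holds 21 genes, of which 19 were tested. In limma 3 of these were higher, or 15.8% (4.20% of all tested genes), 0 lower (8.11% of all tested genes) and 16 did not pass, with a median log2 difference of 0.08. An unadjusted p under 0.05 was found for 3558 of all 12040 tested genes and for 6 of these 19. In the fit without labelled WT replicate 1, limma called 2 of them lower. Vegfa, the growth factor of blood vessels, stood at 632 and 619 FPKM in libraries labelled Sox2 against 69.2 and 35.8 FPKM in libraries labelled WT (log2 difference 3.62, SE 0.36, adjusted p = 4.37e-04). P4ha1, a collagen prolyl hydroxylase subunit, stood at 23.4 and 16.2 FPKM in libraries labelled Sox2 and at 6.54 and 1.68 FPKM in libraries labelled WT (log2 difference 2.19, SE 0.49, adjusted p = 0.0168). The P4ha1 fold of 4.82 was 11.8 without labelled WT replicate 1 and 3.03 without labelled WT replicate 2. Epas1, which encodes HIF-2 alpha, stood at 35.6 and 29.7 FPKM in libraries labelled Sox2 and at 13.4 and 11.4 FPKM in libraries labelled WT (log2 difference 1.33, SE 0.33, adjusted p = 0.0249). The calls of P4ha1 (adjusted p = 0.126 and 0.110) and Epas1 (0.155 and 0.161) were lost without labelled Sox2 replicate 1 or 2. Hif1a, the other main alpha subunit, stood at 21.2 and 13.6 FPKM in libraries labelled Sox2 and at 22.4 and 10.2 FPKM in libraries labelled WT (adjusted p = 0.847). Of the 19 tested genes, 11 had a positive and 8 a negative difference. The labels did not overlap for 12 of them, or 63.2% (58.1% of all tested genes), with 6 higher and 6 lower. Egln3 (log2 difference -1.46, SE 0.44, limma adjusted p = 0.0544) and Ndrg1 (-1.15, SE 0.42, adjusted p = 0.0951) were lower in libraries labelled Sox2 without overlap, and did not pass.

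Markers of other cell types that a lung sort can hold were set beside these results, with levels summed over each whole list. Of all 12040 tested genes, 4.20% rose and 8.11% fell in libraries labelled Sox2, and 3558 had an unadjusted p under 0.05. Among 8 endothelial markers 2 rose in libraries labelled Sox2 and 6 did not pass (118 and 54.7 FPKM in libraries labelled Sox2, against 36.2 and 13.2 FPKM in libraries labelled WT). Of 7 leukocyte markers tested 1 rose, the macrophage receptor Csf1r (whole list: 99.5 and 48.3 FPKM in libraries labelled Sox2, against 44.0 and 22.4 FPKM in libraries labelled WT). Limma called 0 of 7 mesenchymal markers tested, while 3 had an unadjusted p under 0.05 (277 and 91.4 FPKM in libraries labelled Sox2, against 122 and 28.3 FPKM in libraries labelled WT). The 6 red blood cell markers tested included 1 that rose, the globin gene Hba-a2 (whole list: 273 and 1240 FPKM in libraries labelled Sox2, against 74.0 and 334 FPKM in libraries labelled WT). Of 7 basal and squamous markers tested 6 fell (4.64 and 3.48 FPKM in libraries labelled Sox2, against 88.4 and 526 FPKM in libraries labelled WT), and Krt5, a defining basal marker, was too low to be tested. The 6 neuronal markers summed to 3.74 and 1.40 FPKM in libraries labelled Sox2 and to 1.54 and 0.767 FPKM in libraries labelled WT. The part of these cell types in the results above was not tested.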

How the data were processed

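RNA of sorted mouse cells was measured in 4 libraries, 2 per label, grouped by sample title. The submitters' processing notes name mm10 and the tools Bowtie2, TopHat2, Cuffdiff and Cufflinks; their versions, the annotation and use of strand were not given in sources used here. The authors' tables give FPKM for each gene and its lower and upper limits, per the file headers; no read counts were used, so absolute depth is unknown. A further table of 2 columns, which no label ties to a group, was not used.

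Each table listed 24490 entries, joined by symbol and position. Entries of the same symbol were added (267 genes), and 1 gene with a failed value was left out, for 23990 in all. The 12040 that averaged 1 FPKM or more were tested on log2(FPKM + 1), a scale that understates the change of low genes, with limma 3.58.1 in R 4.3.3 (lmFit, eBayes with trend, 2 residual degrees of freedom, two-sided, Benjamini-Hochberg over all tested genes, threshold 0.05). The code of the fit was tested on simulated data with 200 changed genes and independent noise. No shift between whole libraries was simulated, so such shifts were not covered. Folds are ratios of group means in FPKM. Fits with 1 library left out assume that the lone library of its label varies like the other label's. The members and lists were chosen with earlier results of these data known. All members are named, and from each neighbouring list up to 5 genes per direction past the threshold, by largest log2 difference. Bsg, Emb, Pdk3, Eno1b, H6pd, Hkdc1, Khk, Hif1a, Egln3 and Ndrg1 were added after their values were seen. The bounds say nothing of the spread between libraries. Figures and tables used Python 3.11.15.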

Additional observations from a re-analysis of the deposited data

How the results depend on the processing

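Genes were tested again with a pseudocount of 0.1, unfiltered or with a minimum mean of 5 FPKM, under 2 rescalings, with 2 other variance models, with the replicate number as a block and without each library in turn. All 10 genes of the set past the threshold kept their direction in every one of these fits. Unfiltered, limma called 0 genes in either direction, 0 of the set, 0 lower among the neighbouring genes and 0 higher among the hypoxia genes, while 3612 genes, 15 of them in the set, had an unadjusted p under 0.05; 23990 genes were then tested. Median-of-ratios rescaling moved the median of all tested genes to -0.06 and that of the set to -0.48, with 882 genes higher (53.5% of calls, against 34.1%), 3 genes of the set and 4 neighbouring genes higher. Quantile normalization moved these medians to -0.04 and -0.44, with 980 genes higher (54.2% of calls) and 3 and 3 higher in the set and the neighbouring list. Under these rescalings the log2 differences of Slc2a1 (0.0357 and 0.0657) and Aldoa (0.0585 and 0.0346) changed sign. The robust variance model called 2 genes of the set and 3 neighbouring genes higher and 1 hypoxia gene lower, and Tpi1, Pkm and G6pdx also passed (adjusted p = 0.0414, 0.0440 and 0.0409). Without a trend in the variance model Pgk1, Pgls, Pgd and G6pc3 missed the threshold (0.0560, 0.0595, 0.0530 and 0.0580). The cause of these shifts was not tested.

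The shared replicate numbers do not tie libraries to a litter or day. Deviations of same-numbered libraries from their label's mean correlated at 0.234 over 12040 genes. With the replicate block limma called 1142 genes higher and 2730 lower, 4 of the set higher and 17 lower (among them Ldhb, higher at an adjusted p of 0.0441, and Ldha, lower at 0.0360), 5 neighbouring genes higher and 12 lower, and 2 hypoxia genes lower.

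With 1 library left out, 119 to 837 genes were higher and 115 to 1312 lower. In the set 0 to 3 were higher and 0 to 12 lower, in the neighbouring list 0 to 2 and 2 to 5, and among hypoxia genes 1 to 3 and 0 to 2. The set's median lay between -0.96 and -0.54. The differences in share lay between -16.4 and -15.3 points for Ldha, 46.4 and 49.4 for Pdk2, and 19.0 and 25.1 for Pfkfb4. Genes that did not pass changed sign for Slc2a1 (-0.50 to 0.0211), Hk2 (-0.39 to 1.17), Aldoc (-0.79 to 0.0897), Eno3 (-0.33 to 0.35) and Slc16a1 (-0.0148 to 1.26). With 2 libraries per label and no counts, differences near the replicate spread were not detectable.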
